A study of Mus musculus with 7 samples.

Results

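Replication-dependent histone genes encode the bulk of the histone protein that packs newly copied DNA. They were taken as the rows whose name starts with Hist1h, Hist2h, Hist3h or Hist4h and which were listed above 0 in at least 1 library. The deposited table held 68 such rows, and 50 of them met the rule, out of 21813 genes tested in all. The 50 comprised 6 H1, 10 H2A, 15 H2B, 11 H3 and 8 H4 genes, and the other 18 rows were listed at 0 in every library. By name, 55 of the 68 rows belong to Hist1 on chromosome 13 and 10 to Hist2 on chromosome 3. Hist3 on chromosome 11 has 2 and Hist4 on chromosome 6 has 1. Hist1h2al, named among the Hist1 rows, is annotated as a processed pseudogene at chr13:51202727-51203065, away from the other Hist1 rows. It was listed at 0 in every library. At the edge of the rule, Hist1h2ap was listed at 0.29 in 1 library and Hist1h1t at 0.40 in 1 library (log2 levels), while the 18 rows just outside it were at 0 throughout.

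Bulk RNA was sequenced while mouse embryonic stem cells turned into embryoid bodies, which are free-floating aggregates of differentiating cells. All groups come from the Bry-GFP line, a name in use for cells with GFP at the Brachyury locus, so every library carries that reporter, and there were 2 libraries each for days 0, 2 and 4 and 1 library for day 6. On day 0 the stem cells had been grown on mouse embryonic feeder cells with serum and LIF, the cytokine that keeps them undifferentiated, and the labels leave unsaid how many feeder cells were still in the RNA sample. Day 2 cells had spent 48 h without serum or feeders in suspension at 75000 cells per mL. Day 4 cells had then received 150 ng/mL Noggin, 25 ng/mL Wnt3a and 9 ng/mL Activin A for 48 h, a mix meant to form primitive streak. Day 6 cells had next spent 48 h in basic FGF at 10 ng/mL. The replicates are called biological in the labels, so p-values measure the spread between those libraries and no more is known of the cultures.

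Replication-dependent histone genes are switched on in S phase, and their mRNAs, unlike nearly all others, usually end without a poly(A) tail. A short stem-loop close behind the stop codon is bound by the protein Slbp and marks the cleavage site, with the U7 small nuclear RNP as guide. Some of these genes also have a poly(A) signal farther downstream, and the longer, polyadenylated mRNA made from it is known from cells that leave the cycle. The libraries were made with a kit that selects polyadenylated RNA, so the levels given here need not follow total histone mRNA. How much RNA without a tail was carried over was not tested. Because these are bulk samples, fewer cells of one kind and less RNA per cell cannot be told apart.

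The stem-loops of some of the genes that carry the results are printed here because their presence sets how a histone mRNA can end. They were read from the GENCODE transcripts of GRCm38 on the sense strand, by searching for 16 bases with the letters GGNNNTTNTNANNNCC whose outer 6 bases on each side pair with each other. Capitals mark those 16 bases, and 5 neighbouring bases stand on each side.
Hist1h1c: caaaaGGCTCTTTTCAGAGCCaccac
Hist3h2ba: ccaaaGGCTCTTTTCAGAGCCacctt
Hist2h3c1: acaaaGGCTCTTTTCAGAGCCaccac
Hist1h2bk: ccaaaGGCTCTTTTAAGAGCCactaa
Hist1h4i: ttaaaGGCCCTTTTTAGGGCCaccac
Hist1h4n: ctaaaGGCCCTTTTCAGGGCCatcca
Hist4h4: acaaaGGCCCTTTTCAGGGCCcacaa
Hist1h1c, Hist3h2ba and Hist2h3c1 shared the same 16 bases, as did Hist1h4n and Hist4h4.

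A stem-loop was found in 46 of the 68 rows and in 38 of the 50 genes above 0. The search covered annotated transcripts only. For 14 rows no base after the stop codon was annotated, so a loop behind it could not have been found. A row without a match may thus still carry a stem-loop. Outside the 68 rows, 33 genes of the annotation had a match (0.0597%). Among them was H2afx, a variant histone gene known for having both kinds of 3′ end. The form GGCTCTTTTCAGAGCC was the commonest, in 26 genes, followed by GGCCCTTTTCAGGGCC in 7 and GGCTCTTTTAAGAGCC in 6. No match was found in the transcripts of Hist1h2bc, whose model has 2 exons, or of Hist2h2be. The annotated transcript ran at least 100 bases past the stem-loop in 23 of the 46 rows, with a median of 91 bases over the 46. For Hist1h1c the GENCODE model (chr13:23738808-23740367, plus strand, 1 exon) went on for 840 bases after the loop, while the RefSeq model ended at 23739531. The annotation the authors counted on was not stated in any source at hand.

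The promoters of the 3 genes with the largest called changes are printed next, since their levels moved in opposite directions. They come from RefSeq on GRCm38.p6, and capitals mark matches, on either strand, to CCAAT (the box that recruits NF-Y), to TATAAA (the TATA box), to ATTTGCAT (the octamer) and to AAACACA (a word common in H1 promoters). None of these words contains another.
Hist1h1c, chr13:23738557-23738806, plus strand: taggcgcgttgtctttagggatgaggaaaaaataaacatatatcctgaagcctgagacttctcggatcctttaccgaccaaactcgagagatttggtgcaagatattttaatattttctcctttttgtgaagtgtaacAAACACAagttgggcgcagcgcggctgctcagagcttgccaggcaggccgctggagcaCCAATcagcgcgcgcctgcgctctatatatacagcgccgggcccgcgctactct
Hist1h2bc, chr13:23683960-23684198, plus strand: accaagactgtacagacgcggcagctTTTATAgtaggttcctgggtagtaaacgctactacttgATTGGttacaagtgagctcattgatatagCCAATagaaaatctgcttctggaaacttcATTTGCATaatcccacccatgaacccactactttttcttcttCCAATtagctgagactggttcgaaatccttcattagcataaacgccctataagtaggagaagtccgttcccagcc
Hist3h2ba, chr11:58948661-58948910, plus strand: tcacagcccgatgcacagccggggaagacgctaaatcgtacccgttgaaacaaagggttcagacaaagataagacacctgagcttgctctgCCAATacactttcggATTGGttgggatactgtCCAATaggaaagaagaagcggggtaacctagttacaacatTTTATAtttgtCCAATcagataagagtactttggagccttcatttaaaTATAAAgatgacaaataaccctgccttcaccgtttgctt
The Hist1h2bc stretch is the whole 239-base interval between the start of Hist1h2bc and that of Hist1h2ac, an H2A gene read in the opposite direction.

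RefSeq promoter windows were held for 62 of the 68 rows. In the 250 bases before the start, CCAAT was found in 51 of the 62 windows (82.3%), against 33.8% of the windows of all genes. It was present in 6 of 6 H1, 18 of 18 H2A, 16 of 16 H2B and 8 of 10 H3 windows, but in 3 of 12 H4 windows. The octamer ATTTGCAT was found in 7 of 18 H2A and 6 of 16 H2B windows, in no H1, H3 or H4 window, and in 1.60% of all windows. AAACACA stood in 5 of 6 H1 windows and in 6.25% of all windows. TATAAA stood in 29 of 62 histone windows and in 12.4% of all. Windows of divergent gene pairs overlap, so the counts are not independent. A match describes the letters and not a bound site. CCAAT stood in the windows of Hist1h1c and Hist3h2ba, and also in the printed interval before Hist1h2bc. Hist1h2bc had no window of its own. Its printed interval is part of the Hist1h2ac window, which is among the 62 and was counted there.

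Histone reads were few. Levels are given as log2(scaled reads + 1), where scaled reads are the authors' normalized read numbers. From the steps between low values the libraries held roughly 2790000 to 5790000 reads. The level that 3 reads would give lay between 1.45 and 2.30. The day 0 libraries were the deepest, at roughly 5790000 and 4640000 reads against 2790000 to 4500000 later. They also had the lowest levels for 3 reads, 1.45 and 1.71. How far depth shaped the counts of genes reaching that level by day was not tested. Of the 350 values of the 50 genes, 156 were above 0 and 57 reached the level of 3 reads. That level was reached in at least 1 library by 19 genes, in 4 or more by 6 and in all 7 by 3, namely Hist1h1c, Hist3h2a and Hist2h2be. It was never reached by 31 genes, and 13 genes were above 0 in a single library. A value of exactly 0 may stand for a failed estimate here, so such a gene is called listed at 0.

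**Figure D1:**
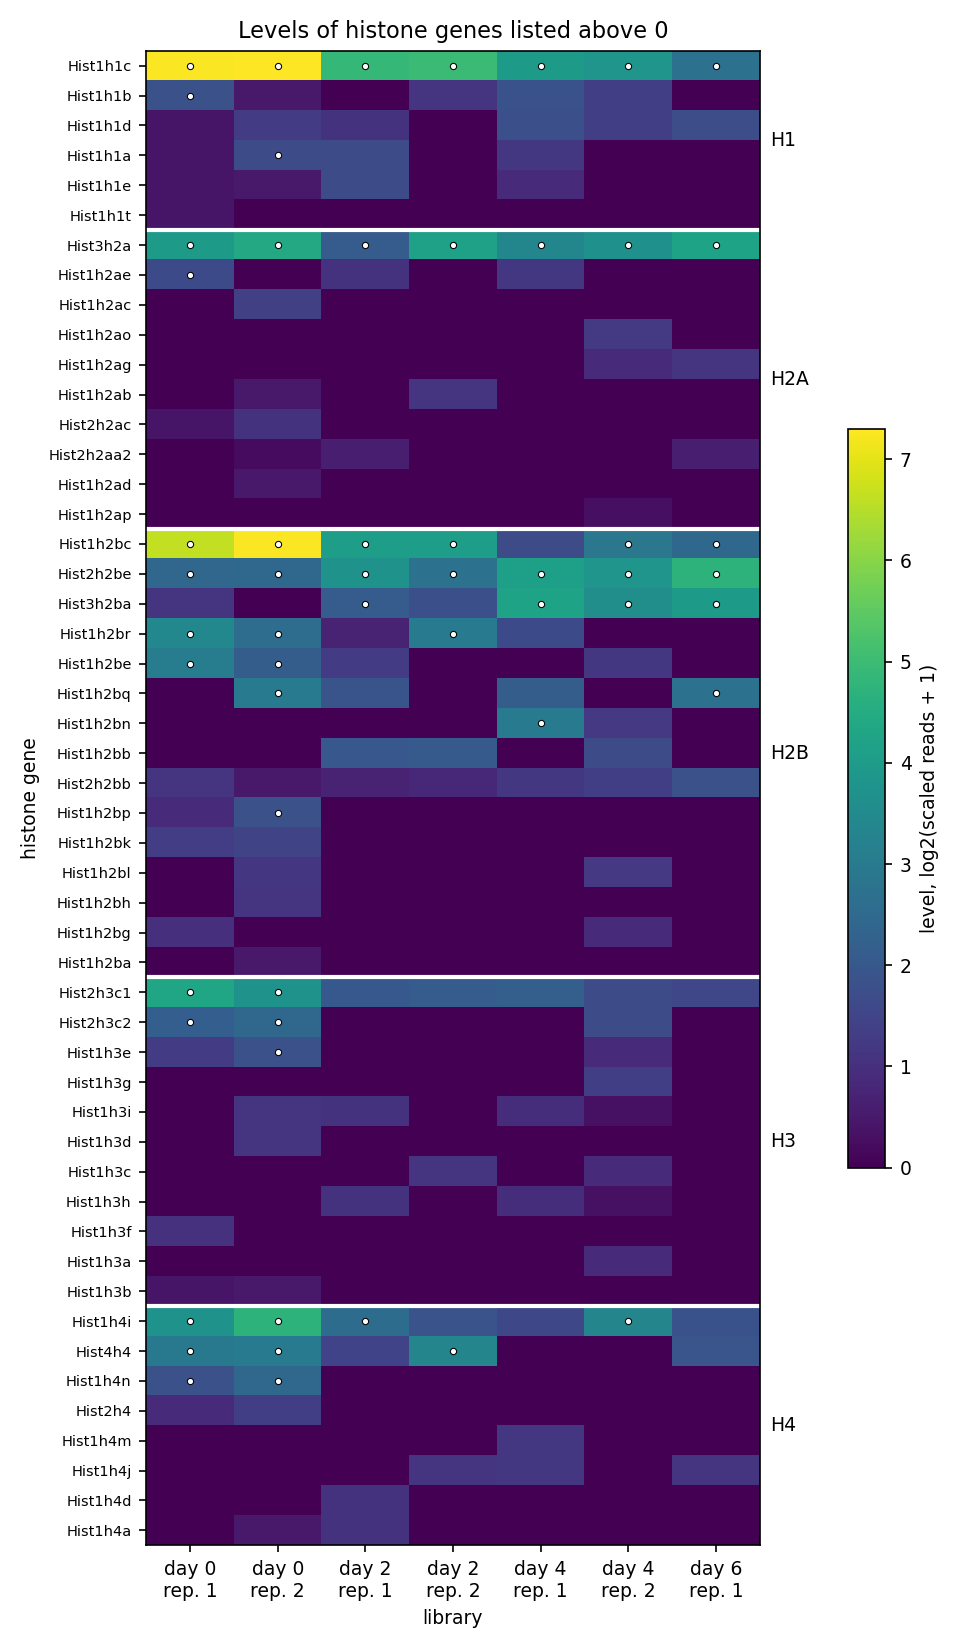
Levels of the 50 histone genes in the 7 libraries, with genes in rows grouped by histone type and ordered by their highest level, and colour giving log2(scaled reads + 1). White dots mark values at or above the level of 3 reads in that library. The day 0 columns, whose libraries were the deepest, hold 13 and 15 of them and the later columns 5 or 6. The 2 brightest rows are Hist1h1c and Hist1h2bc.

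Histone reads were most abundant in the day 0 libraries. Summed over the 50 genes, the scaled reads were 347 and 425 on day 0, 92.6 and 103 by day 2, 92.8 and 87.6 by day 4 and 88.5 by day 6. Both day 0 libraries lay above every later one, and the 5 later libraries lay close together. As a share of all scaled reads this was 0.00922% and 0.0113% on day 0 and 0.00233% to 0.00273% afterwards. The mean of day 0 was 3.95 times that of day 2 and 4.28 times that of day 4.

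Most of this difference lay in 2 genes. Hist1h1c and Hist1h2bc together made up 72.3% and 72.5% of the histone reads on day 0, 47.4% and 45.3% by day 2, 18.3% and 22.3% by day 4 and 11.4% by day 6. Without them the sums were 96.0 and 117 on day 0, 48.7 and 56.2 by day 2, 75.9 and 68.01 by day 4 and 78.4 by day 6. The 48 remaining genes thus still stood highest on day 0, but by a smaller margin.

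**Figure D2:**
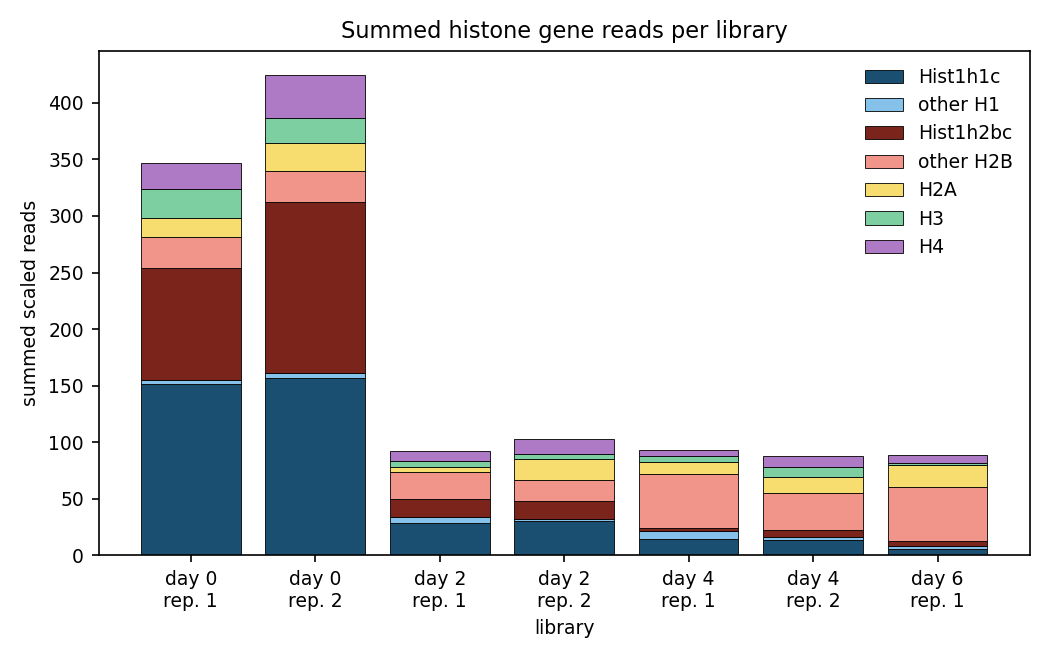
Stacked bars of summed scaled reads per library, with Hist1h1c and Hist1h2bc drawn apart from the other genes of their type. The day 0 bars reach 347 and 425 and the later bars 87.6 to 103, and the dark parts, Hist1h1c and Hist1h2bc, make up most of each day 0 bar and 11.4% of the day 6 bar.

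By type, H1 reads summed to 155 and 162 on day 0 and 21.9 and 16.2 on day 4, a ratio of means of 8.31. H2A reads were 17.3 and 24.0 against 10.50 and 14.2 (1.67), H2B reads 126 and 179 against 50.4 and 39.1 (3.41), H3 reads 25.5 and 22.2 against 5.50 and 8.94 (3.31), and H4 reads 22.4 and 38.5 against 4.59 and 9.10 (4.45). In each type both day 0 sums lay above both day 4 sums. H2A was the type whose later sums reached into the day 0 range, with 18.4 in day 2 replicate 2 and 19.7 on day 6. Leaving out the highest gene of a type turned 2 of these ratios round: it was 0.813 for H1 without Hist1h1c and 0.677 for H2B without Hist1h2bc. Without Hist2h3c1 the H3 ratio was 1.87, without Hist1h4i the H4 ratio was 9.05, and without Hist3h2a the H2A ratio was 1.66. A sum over a type does not depend on how reads were divided among near-identical copies of that type, whereas the single genes below do.

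The joint test over the 4 days (limma, Benjamini-Hochberg adjusted p under 0.05 over all genes) called 6 of the 50 histone genes, against 28.6% of all genes tested. They were Hist1h1c, Hist1h2bc, Hist3h2ba, Hist1h4n, Hist1h2bk and Hist2h3c1. A count of 6 of 50 is below that background share, which includes many genes of far higher levels. Dropping a library changed the count to 0 (day 0 replicate 2 or day 4 replicate 1), to 3 (day 0 replicate 1, day 4 replicate 2 or either of day 2) or to 7 (day 6). With day 0 replicate 2 or day 4 replicate 1 dropped, limma called 0 of all genes as well (10 and 14 histone genes at an unadjusted p under 0.05).

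Between day 0 and day 2, when serum, LIF and feeders were withdrawn, 5 of the 50 genes fell and 0 rose. Over all genes tested 6.20% fell, 5.76% rose and 12.0% changed in either direction. The 5 were Hist1h1c, Hist1h2bc, Hist1h4n, Hist1h2bk and Hist2h3c1. Of these, Hist1h4n and Hist1h2bk were above 0 on day 0 only, so their direction was fixed by the rule. The median change of the 50 genes was -0.28 on the log2 scale, beside 0.05 over all genes. Of the 50 genes, 13 were above 0 on day 0 only, so they met the rule through day 0 and could only fall from it. Another 12 were at 0 in both day 0 libraries and could not fall. The median and the counts of this step include both kinds, and the day 0 libraries were the deepest. Every day 2 value lay below every day 0 value for 13 of the 50 genes, and above for 3, while over all genes 21.6% were below and 28.6% above. Dropping a library changed the count of called genes to 6 (day 0 replicate 1), 0 (day 0 replicate 2), 0 (day 2 replicate 1), 1 (day 2 replicate 2), 0 (day 4 replicate 1) or 2 (day 4 replicate 2). The count over all genes moved too, from 2609 to 0 with the first day 4 library dropped.

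The next steps called no histone gene. From day 2 to day 4, under Noggin, Wnt3a and Activin A, limma called 0 of 50 (5 at an unadjusted p under 0.05), against 3.59% of all genes (2.13% fell and 1.45% rose). Without any 1 library of days 0, 2 or 4 that background was 0 genes (3511 to 5139 at an unadjusted p under 0.05), down from 782. From day 4 to day 6, under basic FGF, it called 0 of 50 (2 at an unadjusted p under 0.05), against 4.46% of all genes (3.18% fell and 1.27% rose), a background of 972 genes that became 0 without any 1 library of days 0 or 4 (4549 to 4961 at an unadjusted p under 0.05) and 256 or 295 without one of day 2. The median change was 0 in both steps, for the histone genes and for all genes. Day 6 has 1 library, which the fit assumes to vary like the other days.

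Over the whole replicated span, from day 0 to day 4, 6 genes fell and 1 rose, against 10.4% and 11.3% of all genes and 21.7% in either direction. Hist4h4 joined the 5 genes that had fallen by day 2, and Hist3h2ba rose. The median change was -0.25, beside 0 over all genes. Here too the 13 genes above 0 on day 0 only, Hist1h4n and Hist1h2bk among them, could only fall. This comparison shares its day 0 libraries with the one between days 0 and 2. Dropping a library changed the count to 9 (day 0 replicate 1), 5 (day 0 replicate 2), 1 (day 4 replicate 1), 4 (day 4 replicate 2) or 8 (any other). Calls over all genes also became fewer than in the full fit without any 1 library of days 0 or 4. Hist1h1c kept its call in all 7 fits that left out 1 library, with differences from -3.46 to -3.30.

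Among the linker histones, which bind DNA between nucleosomes, Hist1h1c held nearly all reads on day 0. This gene encodes H1.2, a linker histone of many body cells. Its level was 7.25 and 7.30 on day 0, 4.87 and 4.99 by day 2, 3.98 and 3.82 by day 4 and 2.72 by day 6. Each day lay below the one before it, with no overlap. The difference was -2.35 ± 0.27 (SE) between days 0 and 2, 5.10-fold lower (limma, adjusted p = 0.00397), and -3.38 ± 0.27 between days 0 and 4, 10.4-fold lower (limma, adjusted p = 0.000562). The steps after day 2 did not pass the test: -1.03 ± 0.27 between days 2 and 4 (limma, adjusted p = 0.0912) and -1.18 ± 0.33 between days 4 and 6 (limma, adjusted p = 0.0900). The first step lost its call without day 0 replicate 2 (limma, adjusted p = 0.0551), day 2 replicate 1 (0.0508) or day 4 replicate 1 (0.0563).

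Of 50-base windows along the Hist1h1c transcript, 8.5% also occurred in another gene, so its reads are largely its own. The other 5 H1 genes were low. Hist1h1d, encoding H1.3, ranged from 0 to 1.79 and reached the level of 3 reads in no library. Hist1h1b, encoding H1.5, ranged from 0 to 1.83 and reached it in 1 library, day 0 replicate 1. Neither passed the test in any comparison. Hist1h1t, the linker histone known from testis, was listed at 0.40 on day 0 replicate 1 and at 0 elsewhere.

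Hist1h2bc encodes a core H2B and held the second share of the day 0 reads. Its levels were 6.65 and 7.25 on day 0, 4.06 and 4.07 by day 2, 1.68 and 2.89 by day 4 and 2.45 by day 6. The days did not overlap down to day 4, and day 6 lay between the day 4 values. The difference was -2.88 ± 0.49 between days 0 and 2, 7.38-fold lower (limma, adjusted p = 0.0148), and -4.66 ± 0.49 between days 0 and 4, 25.3-fold lower (limma, adjusted p = 0.00153). Between days 2 and 4 it was -1.78 ± 0.49 (limma, adjusted p = 0.103). The first difference lost its call without either day 0, either day 2 or the first day 4 library (limma, adjusted p = 0.138, 0.212, 0.103, 0.111 and 0.0580), and the day 0 to day 4 difference without either day 0 or the first day 4 library (0.0725, 0.0960 and 0.0508).

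The Hist1h2bc model (chr13:23684199-23692908, plus strand, 2 exons) is spliced and has 742 bases after the stop codon, and 30.1% of its windows occurred in other genes, most of all in Hist1h2bg. Hist1h2ac, which shares the printed promoter interval, was listed at 1.39 on day 0 replicate 2 and at 0 in the other 6 libraries, below the level of 3 reads. Per kilobase of annotated transcript, Hist1h2bc had a mean of 108 scaled reads on day 0, Hist1h1c 98.8 and the next gene, Hist1h4i, 25.8. On day 4 the order was Hist3h2ba with 23.7, Hist1h2bn with 10.7, Hist1h1c with 8.94 and Hist1h4i with 7.63 scaled reads per kilobase.

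Both H2B genes described next lie outside the chromosome 13 cluster and were lowest on day 0. Hist3h2ba (chr11:58948920-58949533, plus strand, 1 exon) was at 1.13 and 0 on day 0, 2.12 and 1.79 by day 2, 4.24 and 3.61 by day 4 and 3.98 by day 6. Both day 0 values lay below every later one and under the level of 3 reads. The difference between days 0 and 4 was 3.36 ± 0.58 (limma, adjusted p = 0.00919), the one rise called among the 50 genes. It did not pass without either day 0 library (limma, adjusted p = 0.0535 and 0.0879) or either day 4 library (0.102 and 0.0655). The steps to day 2 (1.39 ± 0.58; limma, adjusted p = 0.189) and from day 2 to day 4 (1.97 ± 0.58; limma, adjusted p = 0.119) did not pass by themselves.

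Hist2h2be (chr3:96221119-96223738, plus strand, 1 exon) encodes an H2B variant known from olfactory neurons, where it is made outside S phase. Its levels were 2.40 and 2.44 on day 0, 3.71 and 2.74 by day 2, 4.13 and 3.81 by day 4 and 4.71 by day 6. All later values lay above both day 0 values, but the difference between days 0 and 4, 1.55 ± 0.47, did not pass the test (limma, adjusted p = 0.0604). It passed when either day 2 library was left out (limma, adjusted p = 0.0423 and 0.0403). No 50-base window of Hist2h2be occurred in another gene. Its transcript has 2192 bases after the stop codon and, as said, no stem-loop match.

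**Figure D3:**
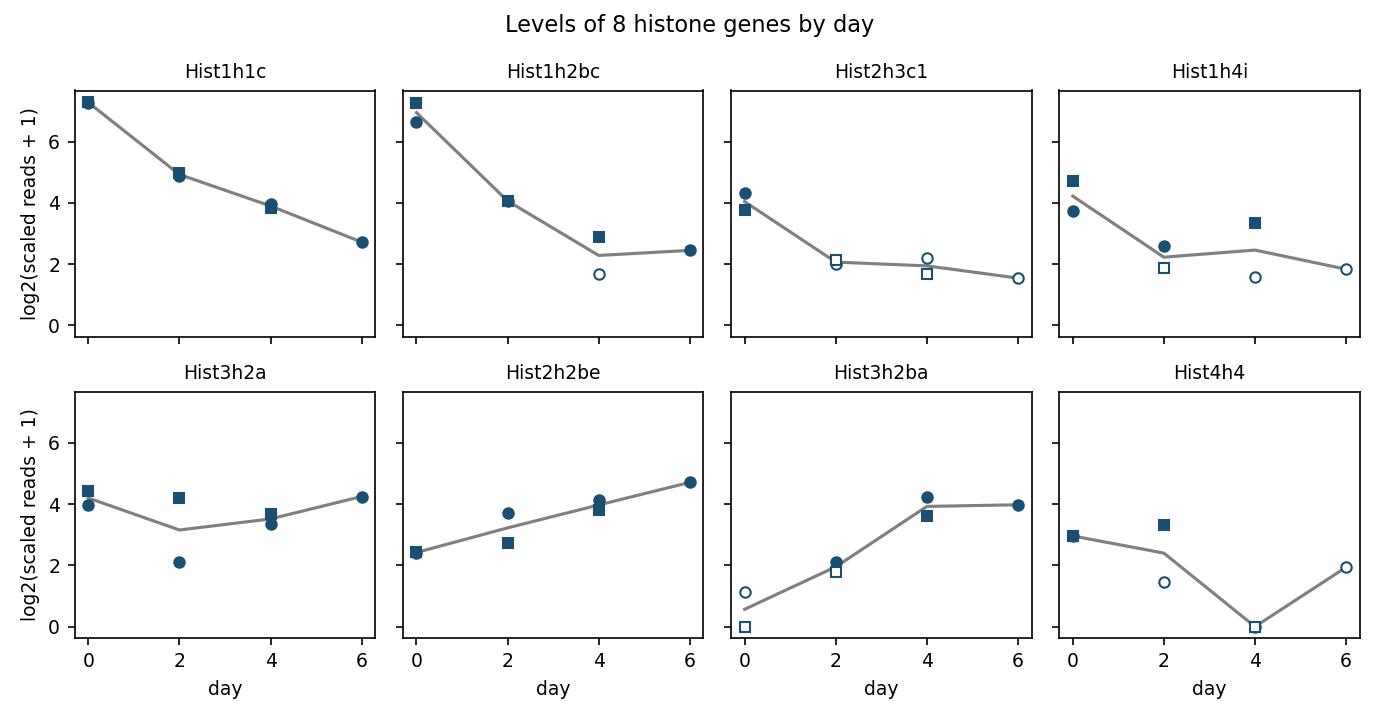
Levels of 8 histone genes against the day, as log2(scaled reads + 1), with circles for replicate 1, squares for replicate 2, filled symbols for values at or above the level of 3 reads and grey lines through the day means. Hist1h1c and Hist1h2bc go from about 7 on day 0 to under 3 on day 6, and Hist2h2be and Hist3h2ba are lowest on day 0.

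Near-identical copies limit what can be said of the other H2B genes. Hist1h2bq and Hist1h2br are 2-exon genes of chromosome 13, and 100% and 99.8% of their windows occurred in other genes, each being the closest match of the other. Hist1h2br was listed at 3.42, 2.62, 0.73, 3.03, 1.65, 0 and 0 over the 7 libraries in order of day and replicate. Hist1h2bq was listed at 0, 3.0, 1.90, 0, 2.15, 0 and 2.72. In 3 libraries one of them was above 0 and the other at 0, so their single levels cannot be read. Both were chosen for display after their values were seen, as were Hist1h2bn, Hist1h2ac and Hist1h1t.

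Hist1h2bk encodes a core H2B and was listed at 1.32 and 1.5 on day 0 and at 0 in the 5 later libraries. It thus met the rule through day 0 alone, and from day 0 a fall was the only change it could show. Its later values, all at 0, had no spread, and this entered the SE. It passed the test against day 2 and day 4 (-1.41 ± 0.32 in both; limma, adjusted p = 0.0365 and 0.0236), yet no value reached the level of 3 reads and 74.2% of its windows occurred in other genes. Leaving out either day 4 library ended both calls (limma, adjusted p = 0.0744 and 0.0759 against day 2, 0.0797 and 0.0732 against day 4). The call against day 2 was also lost without day 0 replicate 2 (0.0551) or either day 2 library (0.103 and 0.115), and with a replicate block (0.0654). Hist1h2bn was at 2.97 and 1.21 on day 4 and at 0 in every other library, and did not pass (limma, adjusted p = 0.0520 against day 0).

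H2A had the smallest ratio between days 0 and 4, and 1 gene made up most of it. Hist3h2a was at 3.99 and 4.41 on day 0, 2.12 and 4.19 by day 2, 3.35 and 3.68 by day 4 and 4.25 by day 6. The days overlapped, and no comparison passed the test (limma, adjusted p = 0.569 over all days). The gene (chr11:58954685-58956830, plus strand) overlaps Trim17 on the same strand, so reads of the pair may have been shared. The other 9 H2A genes were at most 1.64 in any library. Hist1h2ae reached that value on day 0 replicate 1, and Hist1h2ag was at 0.86 and 1.10 in day 4 replicate 2 and on day 6 and at 0 elsewhere.

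Among the H3 genes, Hist2h3c1 (chr3:96246685-96248509, plus strand, 1 exon) was the highest. It was at 4.33 and 3.75 on day 0, 2.01 and 2.13 by day 2, 2.21 and 1.68 by day 4 and 1.55 by day 6. Both day 0 values lay above all later ones, and no later value reached the level of 3 reads. The difference was -1.97 ± 0.50 between days 0 and 2 (limma, adjusted p = 0.0492) and -2.10 ± 0.50 between days 0 and 4 (limma, adjusted p = 0.0267). The first lost its call without any library of days 0, 2 or 4 (limma, adjusted p from 0.0863 to 0.125) without the robust spread estimate (0.0633) and with a replicate block (0.0709), and the second without any library of days 0 or 4 (0.0783 to 0.0958). All windows of this gene occurred in another gene, since the annotated gene Gm20634 overlaps it on the same strand. Hist2h3c2, its neighbour, was at 2.19 and 2.43 on day 0, at 1.70 in day 4 replicate 2 and at 0 elsewhere, and did not pass (-2.31 ± 0.63 against day 2; limma, adjusted p = 0.0636). Hist1h3e was at 1.29 and 1.82 on day 0, at 0.86 in day 4 replicate 2 and at 0 elsewhere (limma, adjusted p = 0.0724 against day 2).

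The H4 protein is the same from nearly all of its genes, yet their levels differed. Hist1h4i was at 3.73 and 4.71 on day 0, 2.58 and 1.88 by day 2, 1.58 and 3.34 by day 4 and 1.84 by day 6. Both day 0 values were the highest, but the day 4 replicates lay far apart and no comparison passed (limma, adjusted p = 0.135 against day 2 and 0.140 for day 4 against day 0). Hist4h4, the H4 gene of chromosome 6, was at 2.95 and 2.97 on day 0, 1.47 and 3.33 by day 2, 0 and 0 by day 4 and 1.94 by day 6. Between days 0 and 4 it fell by 2.96 on the log2 scale (SE 0.71; limma, adjusted p = 0.0280), while leaving out any library of days 0 or 4 ended the call (limma, adjusted p from 0.148 to 0.242). So did adding 10 in place of 1 to the scaled reads (limma, adjusted p = 0.0769) and leaving off the robust spread estimate (0.0502). Since day 4 is listed at 0, no fold is given.

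Hist1h4n was at 1.81 and 2.46 on day 0, both above the level of 3 reads, and at 0 in all 5 later libraries. It thus met the rule through day 0 alone, and from day 0 a fall was the only change it could show. Its later values, all at 0, had no spread, and this entered the SE. It passed the test against day 2 and day 4 with the same difference (-2.14 ± 0.40; limma, adjusted p = 0.0198 and 0.0118). Leaving out day 0 replicate 2 (limma, adjusted p = 0.0520) or either day 2 (0.0940 and 0.104) or day 4 library (0.0827 and 0.0769) ended the call against day 2, and leaving out either day 4 library (0.0928 and 0.0736) that against day 4. Of its windows, 85.6% occurred in other H4 genes, with Hist1h4m as the closest match, so the reads may belong to copies of it.

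Across the 68 rows, the annotated 3′ end went with the level. Transcripts with 150 bases or more after the stop codon numbered 28, and 27 of these were above 0 and 15 reached the level of 3 reads in a library. Of 26 rows with at least 1 but fewer than 150 bases, 16 were above 0 and 2 reached it, and of 14 rows with no annotated base after the stop codon 7 were above 0 and 2 reached it. The class of 150 bases or more held 97.5% and 96.5% of the histone reads on day 0, 90.7% and 92.8% by day 2, 83.7% and 84.0% by day 4 and 95.3% by day 6. Over the 68 rows Spearman's rho between the highest level and the bases after the stop codon was 0.53, a description across genes that share libraries and, in part, sequence. A longer annotated transcript also gives reads more room, and its part in this was not tested.

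**Figure D4:**
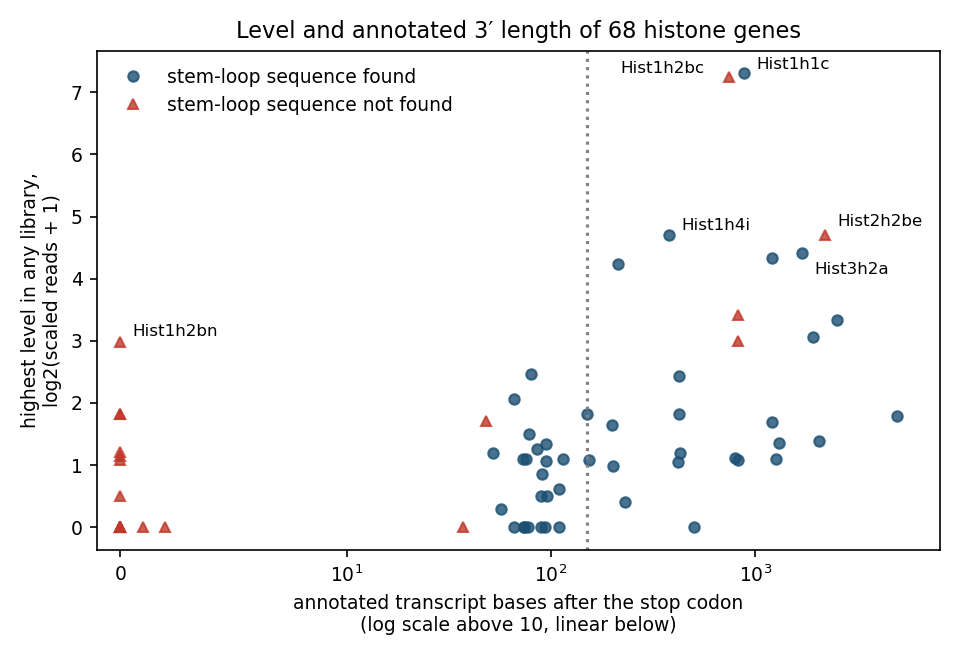
Highest level of each of the 68 histone rows in any library, as log2(scaled reads + 1), against the annotated transcript bases after the stop codon, with circles where the stem-loop sequence was found and triangles where it was not. The dotted line stands at 150 bases: of the points right of or on it 15 of 28 reach the level of 3 reads in some library, and left of it 4 of 40 do.

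Sequence sharing varied as widely. In 33 of the 68 rows at least 50% of the 50-base windows occurred in another gene, the median was 49.6%, and 4 rows shared none. Spearman's rho between the highest level and the shared percentage was -0.21 over the 68 rows. No source at hand says how the authors treated reads that fit several copies. Rows of small RNA classes, chosen by their annotated class, were also listed at low levels, with 533 of 2847 above 0. Whether their reads came from RNAs without a poly(A) tail was not tested. The rows summed to 769 and 548 scaled reads on day 0 and 465 and 726 by day 2. Later sums were 304 and 465 by day 4 and 427 by day 6. The day 0 and day 2 values overlapped.

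Markers of feeder fibroblasts were high on day 0. All 12 markers fell between days 0 and 4 (10.4% of all genes) and 11 of 12 between days 0 and 2 (6.20%). The median change of the markers between days 0 and 2 was -4.26 against 0.05 over all genes. Their summed scaled reads were 20809 and 23416 on day 0, 1588 and 1111 by day 2, 425 and 405 by day 4 and 529 by day 6, and none of the 12 was listed at 0 in any library. Acta2, the smooth muscle actin of activated fibroblasts, fell by 8.01 on the log2 scale between days 0 and 2 (limma, adjusted p = 0.000513), Lox, a collagen cross-linking enzyme, by 7.58 (0.000496) and Tagln, an actin-binding protein, by 5.59 (0.000513). Between days 0 and 2, 1 fall was called without day 0 replicate 1, 0 without day 0 replicate 2 or day 4 replicate 1, and 6 to 10 without day 2 replicate 2, day 2 replicate 1 or day 4 replicate 2 (limma). Between days 0 and 4, 3 to 6 were called without day 0 replicate 2, day 0 replicate 1 or day 4 replicate 1. Both the feeder signal and the histone reads, Hist1h1c and Hist1h2bc above all, were highest on day 0. From day 2 to day 4 the feeder sum fell further, while the histone sum was 92.6 and 103 and then 92.8 and 87.6. Hist1h1c and Hist1h2bc were lower on day 4 than on day 2. Feeders, serum and LIF were withdrawn together, so their parts cannot be told apart. The part of the feeder signal in the day 0 histone reads was not tested.

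A list of 17 genes joined inhibitors of the cell cycle with D-type and G-type cyclins. Between days 0 and 2, 9 fell and 1 rose, with a median change of -1.04. This stands beside 0.05 over all genes, of which 6.20% fell and 5.76% rose. The D cyclins Ccnd1, Ccnd2 and Ccnd3, which drive the cycle, were 3 of the 9, and the rise was that of Cdkn1b, which encodes the inhibitor p27 (0.89; limma, adjusted p = 0.0207). Between days 2 and 4, 3 rose and 0 fell (1.45% and 2.13% of all genes). Between days 4 and 6, 3 rose and 1 fell (1.27% and 3.18%). Cdkn1a, which encodes the inhibitor p21, went from 10.61 and 10.91 on day 0 to 8.18 and 8.16 on day 2 (-2.59; limma, adjusted p = 0.000939) and stayed between 7.87 and 8.29 afterwards. Cdkn2b, encoding the inhibitor p15, fell by 3.0 (limma, adjusted p = 0.00414), and Ccnd2, a G1 cyclin, fell by 2.12 (0.00190) and rose by 1.89 to day 4 (0.00951). Cdkn1c, encoding p57, was at 8.34 on day 6 against 6.51 and 6.23 on day 4, which did not pass (limma, adjusted p = 0.0549). These values stand beside the histone reads of day 0, and their part in them was not tested. With any 1 library but day 6 dropped there were 0 to 5 falls and 0 rises between days 0 and 2, and 0 calls of this list between days 2 and 4 (limma).

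Genes of DNA replication and S phase took another course. Between days 0 and 2, when histone reads became fewer, 9 of 35 rose and 0 fell, with a median change of 0.40. Between days 2 and 4, 0 rose and 3 fell, and between days 4 and 6, 0 rose and 8 fell with a median change of -0.45. Mcm2, a subunit of the replicative helicase, was at 10.29 and 10.17 on day 0, 10.61 and 10.32 by day 2, 10.54 and 10.40 by day 4 and 9.31 by day 6, and the last step passed (-1.16; limma, adjusted p = 0.0233). Slc29a1, a nucleoside transporter, fell by 1.81 in that step (limma, adjusted p = 0.0447) and Mcm5, of the same helicase, fell by 1.32 (0.0227). Ccne1, the cyclin that opens S phase, fell by 1.38 between days 2 and 4 (limma, adjusted p = 0.0106). Pcna, the sliding clamp, and Ccne2, the other cyclin E, passed in no step. Dropping any 1 library of days 0, 2 or 4 gave 0 calls of this list in the first 2 steps, and in the last step 3 without either day 2 library and 0 without any of days 0 or 4 (limma).

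Next came the genes that switch on histone genes and trim the stem-loop end. Of 20 genes of histone transcription and 3′ processing, 4 rose and 0 fell between days 0 and 2 (5.76% and 6.20% of all genes). In the fit of 11800 genes named above 1672 rose in that step. Between days 2 and 4, 0 of the 20 changed (3.59% of all genes), and 1 fell between days 4 and 6 (3.18%). Slbp, the stem-loop binding protein, was at 8.81 and 8.83 on day 0, 9.23 and 9.32 by day 2, 8.68 and 9.14 by day 4 and 9.06 by day 6, and passed in no comparison (limma, adjusted p = 0.234 over all days). Npat, the activator of histone genes in S phase, passed in no comparison either (limma, adjusted p = 0.234 over all days). Casp8ap2, a protein of the same nuclear body, rose by 0.63 between days 0 and 2 (limma, adjusted p = 0.0283). Of the U7-specific proteins, Lsm11 rose by 1.05 (limma, adjusted p = 0.0469), and Lsm10 differed by 0.04 (0.972). Cpsf1, a cleavage and polyadenylation factor, fell by 1.20 between days 4 and 6 (limma, adjusted p = 0.0491). Dropping any 1 library of days 0, 2 or 4 gave 0 calls of this list in each step (limma).

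Of 13 genes of histone mRNA decay, 1 rose between days 0 and 2, 0 changed between days 2 and 4 and 1 fell between days 4 and 6. They were Zcchc11, a uridylating enzyme (0.66; limma, adjusted p = 0.0248), and Upf1, a helicase that acts on stem-loop mRNAs (-1.53; limma, adjusted p = 0.0412). Of 20 histone chaperones, which carry histones to and from DNA, 5 rose between days 0 and 2. Between days 2 and 4, 0 changed, and 3 fell between days 4 and 6. Beside both lists, 5.76% of all genes rose in the first step, 3.59% changed in the next and 3.18% fell in the last. Chaf1b, a subunit of the replication-coupled chaperone CAF-1, rose by 1.04 between days 0 and 2 (limma, adjusted p = 0.0279), while Daxx, which deposits the variant H3.3, fell by 1.91 on day 6 (0.0228) and Cabin1, of the HIRA complex, fell by 1.38 (0.0457). Dropping any 1 library of days 0, 2 or 4 gave 0 calls of either list in each step (limma), except that 1 chaperone still rose between days 0 and 2 without day 0 replicate 1.

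**Figure D5:**
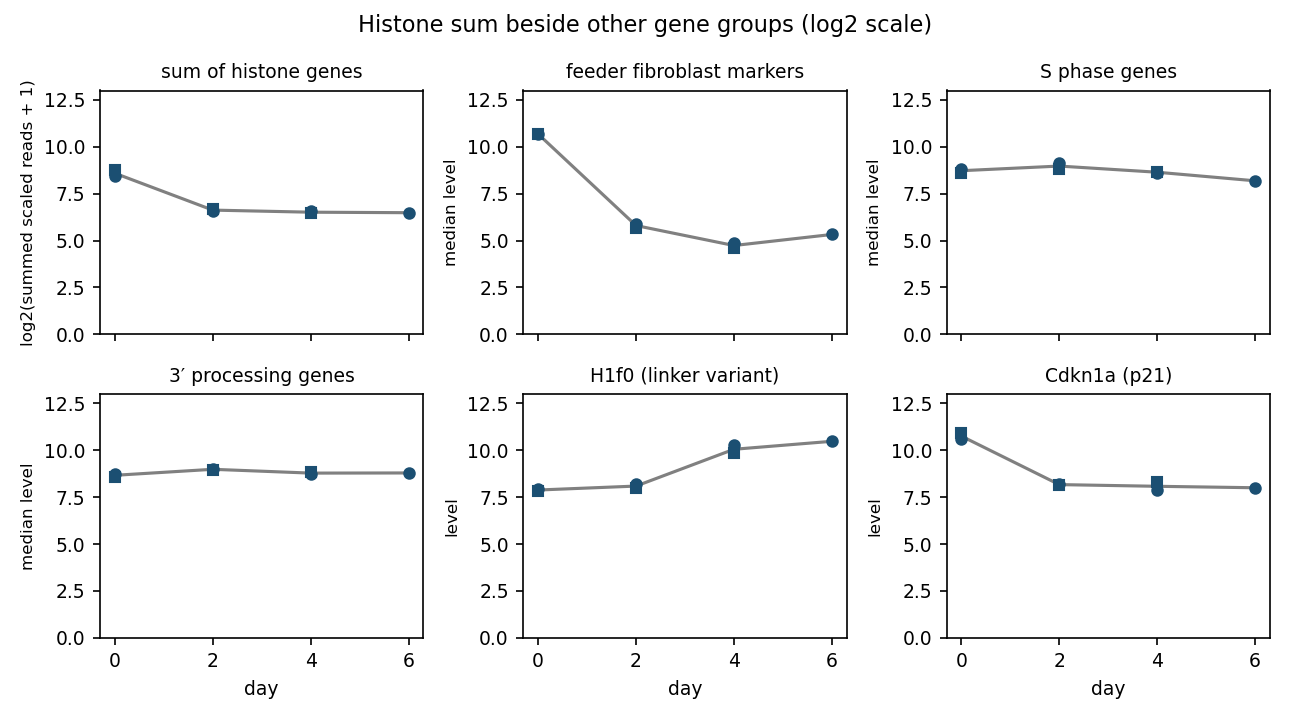
Panels against the day on a log2 scale: the summed scaled reads of the histone genes, the median levels of 12 feeder fibroblast markers, 35 S phase genes and 20 histone 3′ processing genes, and the levels of H1f0 and Cdkn1a, with circles for replicate 1, squares for replicate 2 and lines through the day means. The histone sum, the feeder markers and Cdkn1a step down between days 0 and 2, while H1f0 steps up between days 2 and 4.

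Histone variants are mostly made outside S phase from ordinary polyadenylated mRNAs, and H2afx, which also has a stem-loop, was kept in their list. Between days 0 and 2, 2 of 12 rose and 0 fell (5.76% and 6.20% of all genes). Between days 0 and 4, 6 rose and 1 fell (11.3% and 10.4%). H1f0, the linker histone known from differentiated and resting cells, was at 7.95 and 7.81 on day 0, 8.21 and 7.98 by day 2, 10.26 and 9.85 by day 4 and 10.48 by day 6. Between days 0 and 2, when Hist1h1c changed by -2.35, H1f0 differed by 0.21 (limma, adjusted p = 0.511). Between days 2 and 4, Hist1h1c went from 4.87 and 4.99 to 3.98 and 3.82, a change not called (limma, adjusted p = 0.0912). In that step H1f0 rose by 1.96 (limma, adjusted p = 0.00862). This call ended when any 1 library of days 0, 2 or 4 was dropped (limma, adjusted p up to 0.172).

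H3f3a, which encodes H3.3, rose by 0.80 between days 0 and 2 (limma, adjusted p = 0.0134), and H3f3b, its sister gene, by 0.64 between days 0 and 4 (0.0180). H2afj, an H2A variant gene, was the one that fell between days 0 and 4 (-1.63; limma, adjusted p = 0.0206). H2afy2, a macroH2A gene, rose by 1.71 between days 0 and 2 (limma, adjusted p = 0.0181). H2afx fell by 0.81 on day 6 (limma, adjusted p = 0.0483). H2afz, encoding H2A.Z, and H1fx, a linker variant, passed in no comparison. Dropping any 1 library of days 0 or 4 gave 0 to 2 rises and 0 falls between days 0 and 4, and dropping any of days 0, 2 or 4 gave 0 or 1 rise between days 0 and 2 (limma).

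The labelled cell types were checked against 3 more lists, with counts in place of single genes. Beside them, 6.20%, 2.13% and 3.18% of all genes fell in the 3 successive steps. Between days 0 and 4, 11.3% of all genes rose and 10.4% fell. Of 10 pluripotency genes 5, 6 and 7 fell in the 3 successive steps and 0 rose, but dropping any 1 library of days 0, 2 or 4 gave 0 to 3 falls in the first step and 0 in the next, and in the last step 6 without either day 2 library and 0 without any of days 0 or 4 (limma). Of 9 primitive streak, mesoderm and endoderm genes tested, 5 rose and 0 fell between days 0 and 4, and of 10 neural progenitor genes 8 rose and 0 fell. Dropping any 1 library of days 0 or 4 gave 0 to 2 and 1 to 8 rises in these 2 lists (limma). Of 7 RNAs tested from a list of small structured or non-polyadenylated RNAs, limma called 0 in each step (0, 0 and 3 at an unadjusted p under 0.05) and 1 over all days, Snora73b, a small nucleolar RNA (adjusted p = 0.0238), and 0 over all days once any 1 library was dropped.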

How the data were processed

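Polyadenylated RNA of 7 libraries was sequenced (TruSeq stranded mRNA chemistry, per the labels). The authors deposited 1 table, whose values behave as the natural log of scaled reads + 1; the scale was inferred from the steps between low values, since no source at hand names it. Back-transformed columns sum to between 3759010 and 3759460 scaled reads, so the libraries had been brought to 1 scale before deposit. Some high levels recur exactly across libraries, as matching the ranks of libraries (quantile normalization) would give. Npm1, for example, was at 13.77 both in day 0 replicate 1 and in day 2 replicate 2. Scaled reads thus need not be proportional to reads, and sums, shares and depths are approximate. GRCm38 is the genome named, per the submitters' processing notes, while the aligner, counting tool, annotation and strand setting are unknown here. In the name of 1 column the letter O stands for a zero, and it was taken as day 0 replicate 2; all 7 columns were used, with 0 unmapped.

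Values were divided by the natural log of 2 and fitted as they stood (limma 3.58.1 in R 4.3.3, trended and robust empirical Bayes, 1 mean per day, no pseudocount beyond the deposited 1), with Benjamini-Hochberg adjustment over the 21813 genes above 0 in at least 1 library and a threshold of 0.05. Left out were 8674 genes at 0 throughout and 103 rows of spike-in or reporter sequence. A fold is on the scale of scaled reads + 1, which understates the change of low genes. The fit was tested on simulated data. Depth was read from the height of the low steps, roughly 2790000 to 5790000 reads, and the floor is the level of 3 reads.

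Sums were taken over back-transformed values and have no test. Stem-loops, exons and 50-base windows shared with other genes were computed from GENCODE transcripts of GRCm38, and all 68 rows were matched by name. Named histone genes are the 3 of each type with the highest mean level and up to 5 rises and 5 falls past the threshold in each of 4 comparisons; of other lists, the up to 3 genes with the largest change past the threshold between successive days, and a fixed set (Slbp, Npat, Lsm10, Lsm11, Casp8ap2, H3f3a, H3f3b, H2afz, H2afx, H1f0, H1fx, Pcna, Mcm2, Ccne2, Cdkn1a and Cdkn1c). The histone genes and all lists were chosen with earlier results of these data known. Alternatives were a filter on the mean level, centring on the library median, a pseudocount of 10, no robust step, a replicate block, leaving out each library, and sums without the highest gene; added after seeing the data were the joint test without both day 0 libraries and sums over genes with no shared window. Figures were drawn with matplotlib 3.10.9.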

Additional observations from a re-analysis of the deposited data

How the results depend on the processing

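With a mean level of at least that of 10 scaled reads, 3 histone genes remained, namely Hist1h1c, Hist1h2bc and Hist3h2a. Of these, 2 were called over all days, 2 between days 0 and 2 and 2 between days 0 and 4. Of the 11800 genes that passed this filter, 6425, 2950 and 4465 were called in the same order. The medians of the 3 histone genes were -2.35 (days 0 to 2), -1.03 (2 to 4), 0.17 (4 to 6) and -3.38 (0 to 4). Without both day 0 libraries the joint test called 0 (limma). Leaving out 1 library at a time gave 0 to 7 calls over all days, 0 to 6 between days 0 and 2 and 1 to 9 between days 0 and 4, with 0 in the other 2 steps; the medians ranged from -0.51 to 0 (days 0 to 2), 0 to 0.0514 (2 to 4), -0.143 to 0 (4 to 6) and -0.51 to 0 (0 to 4). The ratios of sums between days 0 and 4 ranged from 7.23 to 9.77 for H1, 1.40 to 1.97 for H2A, 2.82 to 3.99 for H2B, 2.67 to 4.34 for H3 and 3.27 to 6.64 for H4. Without the highest gene they were 0.813 (H1), 0.677 (H2B), 1.87 (H3) and 9.05 (H4), and over genes with no shared window 1.08 (H1) and 0.295 (H2B, 1 gene). Centring moved the medians of the middle and last step to 0.0002 and 0.0020. Column names share an ending within each replicate number across days, but whether the numbers pair the samples is not known. Correlations of deviations (-0.06, -0.07 and 0.22) cannot settle it, and the main fit left the number out. With the number as a replicate block, 3 genes were called between days 0 and 2, 4 over all days and 7 between days 0 and 4. The median of the step from day 4 to day 6 was then -0.10. Of 30 changes of single histone genes in the report, 0 reversed; under alternatives that kept all libraries 122 stayed on their side of the threshold and 6 did not, and with libraries left out 161 did and 46 did not. The causes were not tested. Depth limits 31 of the 50 genes, which never reached the level of 3 reads.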
